A study of Mus musculus with 2 samples.

Results

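Axon guidance ligands and receptors are cell-surface and secreted proteins that steer growing axons and moving cells. The genes described here are those with a platform symbol of the semaphorin, plexin, neuropilin, ephrin, Eph, netrin, Unc5, Slit or Robo families, and they were chosen by symbol alone. This gave 73 probe sets of 68 genes, of 19938 genes with 1 symbol on the array. They were measured in mouse embryonic fibroblasts (MEFs), primary cells grown from embryos at 13.5 days post coitum, of the genotypes MatDup.dist7 and PatDup.dist7. The distal segment of chromosome 7 is inherited only from the mother in MatDup.dist7 and only from the father in PatDup.dist7, at equal copy number. Each genotype was hybridised to 1 array, and the labels do not say how many embryos or cultures the RNA came from. There is thus no replicate, no test between the genotypes and no p-value, and every difference below compares these 2 RNA samples and not the genotypes.

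In the semaphorin system, secreted or membrane-bound semaphorins bind plexins, with neuropilins as co-receptors for most secreted members. Ephrins are membrane-anchored ligands of the Eph receptor tyrosine kinases and signal between touching cells in both directions. Netrins attract or repel through Dcc, neogenin and the Unc5 receptors, and Slits repel through Robo receptors. Besides axons, these systems act on the migration and sorting of neural crest, blood vessel and mesenchymal cells, and fibroblasts are known to use several of them.

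The deposited values are intensities on a linear scale, in arbitrary units, with array medians of 68.6 for MatDup.dist7 and 64.2 for PatDup.dist7. Wherever a gene is given 2 intensities, the first is that of MatDup.dist7 and the second that of PatDup.dist7. Differences are given as log2(intensity + 16) in MatDup.dist7 minus that in PatDup.dist7, so a positive value is higher in MatDup.dist7, and this scale understates differences of weak signals. A gene was called above the signal filter where its higher value exceeded the median of all probe sets, an intensity of 66.4, and 55 of the 68 guidance genes were above it. Probe sets differ in how strongly they bind, so intensities are compared between the arrays and not between genes. Lying above the filter does not identify a cell type. All 9 macrophage markers, all 7 of smooth muscle and pericytes and 7 of 9 epithelial markers did so. The same held for 5 of 8 skeletal muscle, 5 of 11 neuronal, 4 of 10 endothelial and 3 of 7 glia and neural crest markers. Of 10 fibroblast marker genes, 9 lay above the filter. Of these 10, 8 were lower in MatDup.dist7 and 2 higher, and their intensities summed to 41505 and 48057. Vim, which encodes vimentin, stood at 11913 and 11542 (0.05), and Dcn, the decorin gene and the 1 marker of this list past 2-fold, at 142 and 592 (-1.95). Markers of other cells differed between the arrays as well. Of 11 neuronal markers, 9 were higher in MatDup.dist7, with summed intensities of 2005 and 946, of which Stmn2 contributed 755 and 73.7 and Tubb3 633 and 324. Of 9 epithelial markers, 8 were higher in MatDup.dist7, with sums of 1386 and 598. To these, Sfn contributed 398 and 2.02 and Krt19 152 and 18.8. The sums were 850.3 and 849.6 for 10 endothelial markers, 520.2 and 507 for 7 markers of glia and neural crest, 3262 and 3841 for 9 macrophage markers, 2811 and 2459.5 for 8 skeletal muscle markers and 22466 and 20277 for 7 markers of smooth muscle and pericytes. A sum follows the strongest markers, such as Acta2 of the smooth muscle list with 13569 and 12280. In that list Myh11 (-1.46) and Cspg4 (1.09) passed 2-fold in opposite directions. The endothelial marker Esam stood under 1 in PatDup.dist7, and no other marker of these lists did on either array. Several guidance genes are also expressed by neurons, endothelium and epithelium, and the part of these cells in the differences below was not tested. In such bulk RNA, fewer cells of a type and less RNA per cell cannot be told apart. Sex-linked transcripts differed too, with Xist listed at 0.00166 and 91.2 and the Y-linked Kdm5d at 122 and 22.9, so sex and genotype cannot be told apart for any gene here.

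The netrin genes Ntn4 and Ntn5 and the semaphorin genes Sema3g and Sema4g were higher in MatDup.dist7 by 2-fold or more, whereas the receptor genes Robo1, Nrp2, Plxna4 and Plxnc1 and the ligand genes Efna3, Sema3b and Ntn3 were higher in PatDup.dist7. An excess of 2-fold or more was found for 4 of the 68 genes in MatDup.dist7, compared with 4.47% of all genes, and for 7 in PatDup.dist7, compared with 3.16% of all genes. Both directions together made 16.2% of the guidance genes and 7.63% of all genes. The median absolute difference was 0.53 for the guidance genes and 0.38 for all genes. Their signed differences were nearly balanced, with 30 positive and 38 negative values and a median of -0.09, against 0.02 for all genes. The 4 genes with this excess in MatDup.dist7, a count near the 4.47% of all genes, all encode ligands. Of the 7 higher in PatDup.dist7, 4 encode receptors, as do 33 of the 68 genes. This split depends on the setting. With a pseudocount of 1 in place of 16, 2 receptor genes passed 2-fold toward MatDup.dist7, against 10.9% of all genes. With a pseudocount of 64, 1 ligand gene passed toward MatDup.dist7 and 1 receptor gene toward PatDup.dist7, against 0.466% and 0.401% of all genes. The 35 ligand genes had 18 positive and 17 negative differences and a median of 0.01, which became -0.04 after quantile normalisation. The 33 receptor genes had 12 positive and 21 negative differences and a median of -0.29, which ranged from -0.31 to -0.18 over 7 other settings. Unc5cl (0.04), which is not known as a netrin receptor, was counted among these 33. The only measure of error in these data is the agreement of probe sets of 1 gene, whose differences had a standard deviation of 0.43 within genes (1931 probe sets of 724 genes above the filter). Variation between cultures is not part of it. The 2 probe sets of Sema6b, with identical values, were counted in it as separate, which lowers the standard deviation.

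**Figure D1:**
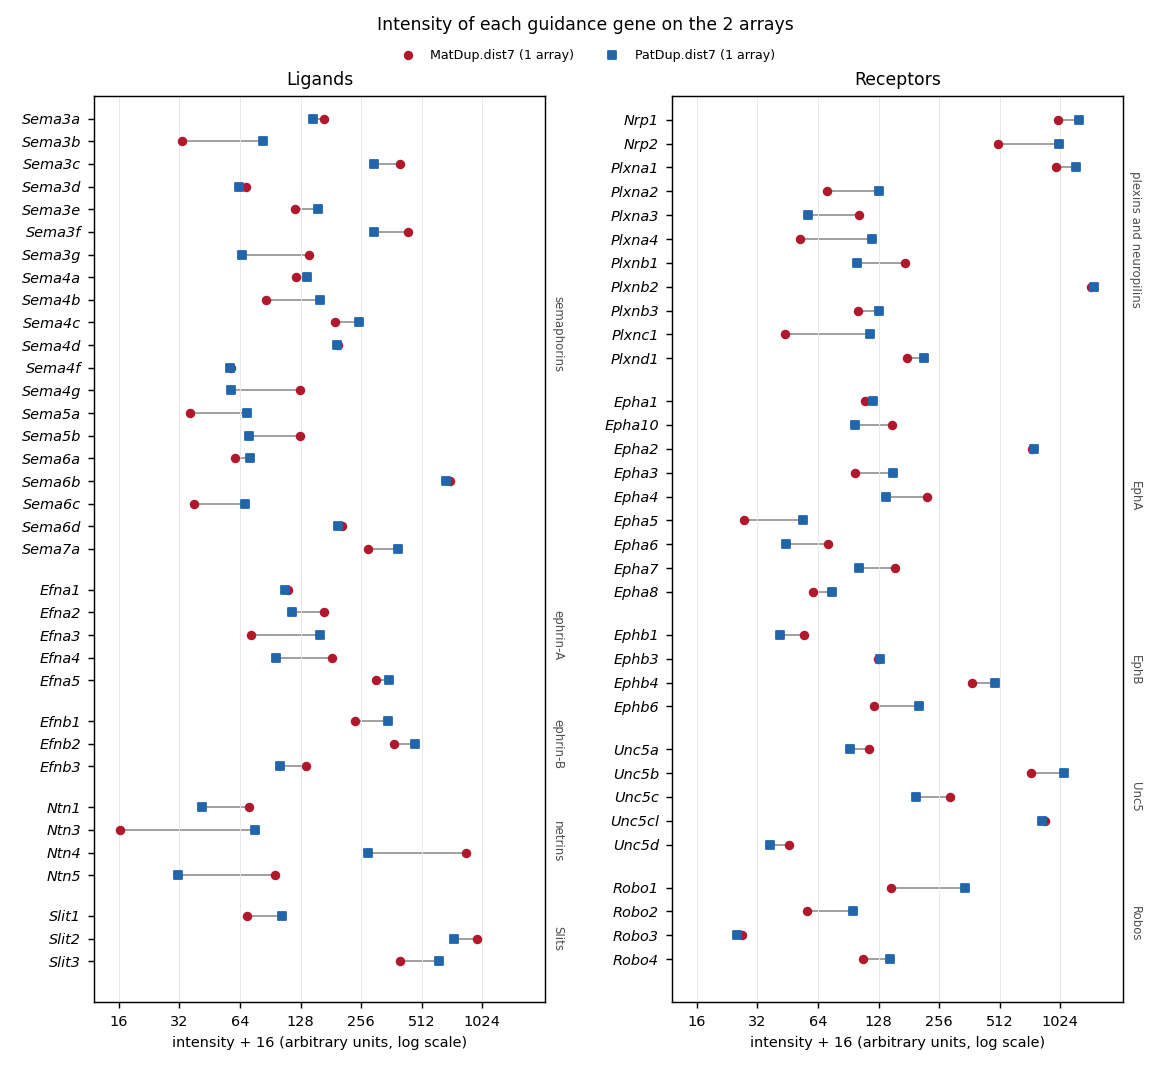
Intensity plus 16 of each guidance gene on a log scale, with ligand genes on the left and receptor genes on the right, for MatDup.dist7 (circles) and PatDup.dist7 (squares), 1 array each. Genes with several probe sets are shown by their mean intensity. The widest gaps are those of Ntn3, Ntn4 and Ntn5 among ligands and of Plxnc1 and Robo1 among receptors.

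**Figure D2:**
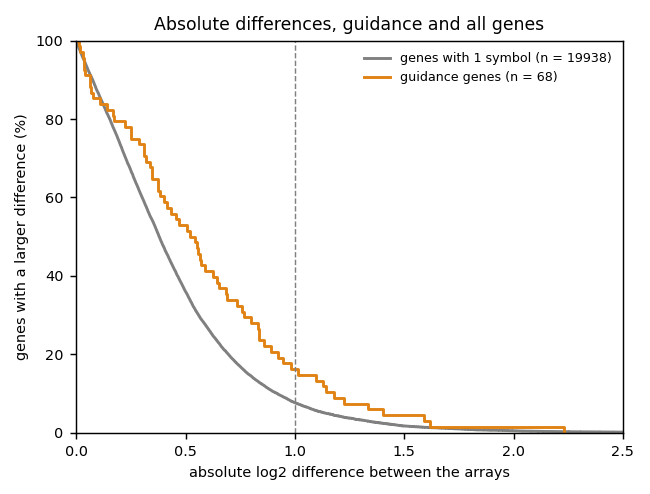
Share of genes (vertical axis, percent) whose absolute log2 difference between the arrays exceeds the value on the horizontal axis, for the guidance genes and all genes with 1 symbol. At the dashed line of a 2-fold difference, the guidance genes stand at 16.2% and all genes at 7.63%.

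Ntn4, Sema3g, Nrp2 and Robo1, all beyond 2-fold, are shown with the sequence before their start, since they stand for the netrin, semaphorin, neuropilin and Robo families in both directions and each has 1 start in the RefSeq promoter table. Their choice was made with their values known. The 250 bases before the start are printed from 5′ to 3′ on the plus strand of GRCm38.p6, with each GC box (GGGCGG or its reverse complement CCGCCC) in capitals. The windows are chr10:93640799-93641048 for Ntn4, chr14:31217623-31217872 for Sema3g, chr1:62703067-62703316 for Nrp2 and chr16:72662899-72663148 for Robo1.
Ntn4: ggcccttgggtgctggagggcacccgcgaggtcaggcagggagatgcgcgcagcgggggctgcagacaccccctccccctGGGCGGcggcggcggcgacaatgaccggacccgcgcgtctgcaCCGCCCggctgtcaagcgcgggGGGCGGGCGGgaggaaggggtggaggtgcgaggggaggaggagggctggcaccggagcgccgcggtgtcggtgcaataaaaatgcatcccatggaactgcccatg
Sema3g: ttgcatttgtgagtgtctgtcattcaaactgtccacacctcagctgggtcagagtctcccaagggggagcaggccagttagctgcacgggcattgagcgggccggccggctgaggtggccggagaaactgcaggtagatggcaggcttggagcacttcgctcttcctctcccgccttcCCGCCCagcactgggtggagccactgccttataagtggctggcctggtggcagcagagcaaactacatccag
Nrp2: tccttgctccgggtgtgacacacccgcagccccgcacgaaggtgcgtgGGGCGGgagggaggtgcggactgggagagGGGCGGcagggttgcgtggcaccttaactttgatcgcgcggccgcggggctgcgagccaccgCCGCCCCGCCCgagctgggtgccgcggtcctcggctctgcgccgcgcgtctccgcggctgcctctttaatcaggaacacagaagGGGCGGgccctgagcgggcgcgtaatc
Robo1: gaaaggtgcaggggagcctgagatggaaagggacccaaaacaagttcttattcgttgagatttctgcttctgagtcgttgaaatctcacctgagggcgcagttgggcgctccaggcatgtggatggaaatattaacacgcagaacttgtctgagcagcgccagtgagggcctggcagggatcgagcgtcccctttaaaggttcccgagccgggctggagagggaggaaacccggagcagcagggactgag
The windows of Ntn4 and Nrp2 hold 4 and 5 GC boxes, overlapping ones counted separately, that of Sema3g holds 1 and that of Robo1 none. They hold 26, 32, 8 and 11 CpG pairs in the order Ntn4, Nrp2, Sema3g and Robo1. A GC box was thus found in genes of either direction. None of these windows holds a CCAAT box (CCAAT or ATTGG) or the letters TATAAA or TTTATA. The table held 75 windows for 59 of the 68 guidance genes. A GC box was present in 72.0% of these windows and in 32.7% of all 32851 windows, a CCAAT box in 26.7% and 33.8%, and TATAAA or its reverse complement in 2.67% and 12.4%. The median number of CpG pairs was 15 in the guidance windows and 6 in all windows. Neither binding nor methylation of these windows was measured in the values used here.

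The netrin genes held the widest differences. Ntn4, which encodes a laminin-related netrin of basement membranes, had 833 and 260.2. This is a difference of 1.62, or 3.07-fold on this scale, and both values lay above the signal filter. Ntn5, a netrin-like gene on chromosome 7, had 79.1 and 15.6 (1.59). Ntn1, the classical midline attractant, had 55.0 and 25.6 (0.77) and was under the filter on both arrays. Ntn3 went the other way, being listed at 0.152 and 59.9 (-2.23), also under the filter. Ntn4 and Ntn5 were higher in MatDup.dist7 by more than 2-fold, against 4.47% of all genes. Thus 3 of 4 netrin genes were higher in MatDup.dist7, and the median of the 4 was 1.18. Over 7 other settings this median ranged from 0.63 to 1.59, the latter with Ntn3 left out. Ntn4 was the only netrin gene to pass 2-fold with a pseudocount of 64, against 0.868% of all genes. Its difference was then 1.47, compared with 0.85 for Ntn5, 0.41 for Ntn1 and -0.95 for Ntn3.

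Of the netrin receptors, none of the Unc5 genes differed by 2-fold, against 7.63% of all genes. Unc5b, which also guides blood vessels, had 712 and 1050.3 (-0.55). Unc5c, a repulsive netrin receptor, had 274 and 180.0 (0.57), so these receptors differed in opposite directions. Unc5a had 98.7 and 76.6 (0.31). The probe sets of Unc5d disagreed, with 16.5 and 18.9 (-0.10) for 1 of them and 43.1 and 22.9 (0.60) for the other. Unc5cl, which the symbol pattern takes in although it is not known as a netrin receptor, had 839.7 and 817 (0.04). The other receptors and relatives of this system were taken from a list of 9 genes, of which 8 had a value. Neo1, the neogenin receptor gene, had 379 and 364 (0.06), and Dcc, the attractive netrin receptor gene, had 13.5 and 31.7 (-0.69), under the filter. Of the neogenin ligands, Rgma had 262 and 171 (0.57), Rgmb had 353 and 224 (0.62), and Hjv, the hemojuvelin gene of iron metabolism, had 80.3 and 25.6 (1.21). Hjv was the 1 gene of these 8 beyond 2-fold, against 7.63% of all genes, and the list median was 0.16.

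**Figure D3:**
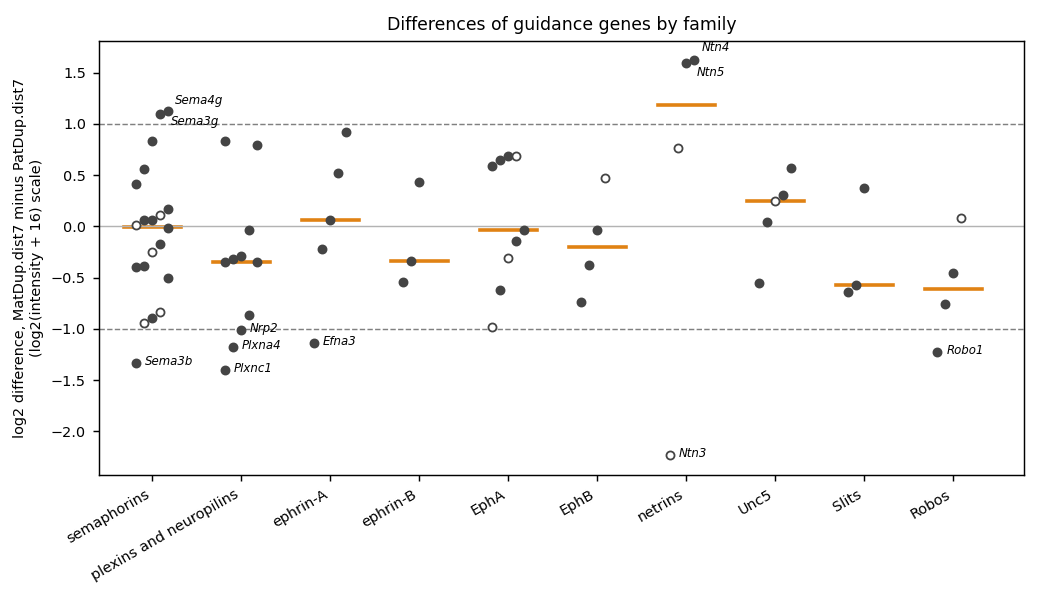
Log2 difference, MatDup.dist7 minus PatDup.dist7, of each guidance gene by family; filled points are above the signal filter, open points under it, orange bars are family medians and dashed lines mark 2-fold. The family medians run from -0.61 for the Robo genes to 1.18 for the netrins, and the 11 named points lie beyond 2-fold.

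The 20 semaphorin genes split evenly, with 10 positive and 10 negative differences and a median close to 0, between -0.04 and 0.04 over the settings. Among the 7 secreted class 3 genes, 5 were higher in MatDup.dist7. Sema3g, known from blood vessel walls, had 124 and 49.7 (1.10). Sema3b, a secreted semaphorin known as a growth suppressor in tumour cells, had 17.2 and 67.5 (-1.33), the largest difference of the semaphorins. Sema3f, a ligand of the neuropilin-2 co-receptor, had 420.1 and 281 (0.56). Sema3c, a cue for neural crest cells of the outflow tract, had 382 and 282 (0.42). Sema3a, the prototype growth cone repellent, had 150.4 and 132 (0.17), and Sema3d had 52.2 and 47.2 (0.11). Sema3e, the ligand of plexin-D1, had 104 and 141 (-0.38). The class 3 genes therefore passed 2-fold once in each direction, against 4.47% and 3.16% of all genes.

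The membrane-bound semaphorins were measured in classes 4 to 7. Sema4g, a transmembrane semaphorin, had 111 and 42.0 (1.13). It was the only gene of these 13 genes to pass 2-fold, against 7.63% of all genes. Sema4b, the other guidance gene on chromosome 7, had 69.9 and 143 (-0.89), and Sema4c had 173 and 234 (-0.40). Sema4a had 106 and 121 (-0.17) and Sema4f 41.5 and 41.1 (0.01). The probe sets of Sema4d, the ligand of plexin-B1, disagreed in direction, with 230.2 and 186 (0.28) against 132 and 169 (-0.32). The class 5 genes, whose proteins carry thrombospondin repeats, stood in opposite directions. Sema5a had 20.2 and 53.7 (-0.95, under the filter) and Sema5b had 111 and 55.1 (0.84). In class 6, Sema6b was represented by 2 probe sets with identical values of 689 and 657 (0.07), which are 1 measurement. Sema6d had 189.8 and 181 (0.06), and Sema6a (44.5 and 55.9, -0.25) and Sema6c (22.0 and 51.7, -0.83) were under the filter. Sema7a, which is anchored to the membrane by a lipid and binds plexin-C1, had 259 and 376 (-0.51).

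The receptors of the semaphorins were mostly higher in PatDup.dist7. Of 11 plexin and neuropilin genes, 9 had a negative difference, or 8 after quantile normalisation, when Plxnb2 turned positive. Nrp2, Plxna4 and Plxnc1 exceeded 2-fold toward PatDup.dist7, against 3.16% of all genes, and no receptor did toward MatDup.dist7. These counts depend on the setting. With a pseudocount of 64 none of the 11 passed, against 0.868% of all genes. After quantile normalisation 2 did toward PatDup.dist7, against 3.70% of all genes. With a pseudocount of 1, 4 passed toward PatDup.dist7 and 1 toward MatDup.dist7, against 8.55% and 10.9% of all genes. The median was -0.35. Nrp2, the co-receptor for class 3 semaphorins and for the lymphatic growth factor VEGF-C, had 484 and 992. Its difference of -1.01 lay just past 2-fold, and it was -0.95 with a pseudocount of 64. Nrp1, the co-receptor for Sema3a and VEGF-A, had 975 and 1244 (-0.35). Both neuropilin genes were thus lower in MatDup.dist7, as were 7 of the 9 plexin genes.

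Plxnc1, the receptor gene for Sema7a, had 28.1 and 101 (-1.40), the largest difference of the receptors. Its ligand gene Sema7a was also lower in MatDup.dist7 (-0.51). The plexin-A genes encode the signalling partners of neuropilins. Plxna4 had 36.1 and 102 (-1.18), Plxna2 had 54.8 and 112 (-0.86) and Plxna1 had 961 and 1203 (-0.32). The X-linked Plxna3 went the other way, with 86.3 and 41.4 (0.83). The plexin-B genes mainly bind class 4 semaphorins. Plxnb1 had 158 and 83.9 (0.80), Plxnb2 had 1445 and 1479.6 (-0.03) and the X-linked Plxnb3 had 85.5 and 113 (-0.35). Plxnd1, a vascular plexin gene, had 161 and 199.98 (-0.29), and its ligand gene Sema3e differed by -0.38. Sema3f (0.56) and its co-receptor gene Nrp2 (-1.01) stood in opposite directions.

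Ligands and receptors of the VEGF family share the neuropilins. Of 8 such genes, 1 passed 2-fold in each direction, against 4.47% and 3.16% of all genes, and the median was -0.38. Vegfd, a lymphatic growth factor gene, had 164 and 70.2 (1.06). Pgf, the placental growth factor gene, had 7.32 and 45.5 (-1.40) and was under the filter. Vegfc, the ligand for Nrp2, had 100.2 and 180.2 (-0.76), and Vegfa, a ligand for Nrp1, had 291 and 402 (-0.45). Of 24 transducers of plexin and semaphorin signals, 2 passed 2-fold, both toward MatDup.dist7. This is 8.33%, near the 7.63% of all genes, and the median was -0.13. Crmp1, a neuronal collapsin response mediator gene, had 143 and 47.4 (1.33), and Cd72, which encodes a B-cell surface protein that binds Sema4d, had 179 and 66.9 (1.23). The Crmp1 relatives Dpysl2 (1566 and 1147, 0.44) and Dpysl3 (1908 and 2486, -0.38) stood in opposite directions.

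Among the ephrin genes, Efna3 was the 1 of 8 beyond 2-fold, against 7.63% of all genes. Ephrin-A genes encode ligands held by a lipid anchor, which bind mainly EphA receptors. Efna3 had 56.6 and 144 (-1.14). Efna4, the next gene along chromosome 3, had 168 and 80.8 (0.92), close to 2-fold in the opposite direction and past it with a pseudocount of 1 (1.04). Efna1, the neighbour on the other side of Efna3, had 95.5 and 90.6 (0.06). The 3 adjacent genes therefore spanned both directions. Efna2 had 151 and 100.5 (0.52) and Efna5 had 286 and 337 (-0.22). Ephrin-B genes encode transmembrane ligands. The X-linked Efnb1, a gene of craniofacial patterning, had 222 and 331 (-0.54). Efnb2, the arterial ephrin gene, had 357 and 456 (-0.34), and Efnb3 had 121 and 85.3 (0.43).

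None of the 13 Eph receptor genes differed by 2-fold, against 7.63% of all genes, and their median was -0.04. Of 9 EphA genes, 4 were higher in MatDup.dist7. Epha4, a receptor for both ephrin classes, had 207 and 123 (0.69). Epha7 had 138 and 86.5 (0.59), and Epha6 had 55.6 and 28.4 (0.69, under the filter). Epha10, a receptor without kinase activity, had 183 and 121 (0.54) in 1 probe set and 83.9 and 42.9 (0.76) in the other. The other 5 EphA genes had negative differences. Epha5, a neural receptor gene under the filter, had 11.4 and 38.1 (-0.98), just inside 2-fold. It passed 2-fold with a pseudocount of 1 (-1.66), after quantile normalisation (-1.02) and after centring on the median of all genes (-1.004). Epha3 had 82.1 and 135 (-0.62), Epha8 had 44.5 and 59.0 (-0.31, under the filter) and Epha1 had 93.5 and 105 (-0.14). Epha2, an epithelial and fibroblast Eph receptor gene, had 724 and 739.9 (-0.03), and its sign turned after quantile normalisation.

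In the EphB family, Ephb6, whose protein also lacks kinase activity, had 105 and 186 (-0.74). Ephb4, the venous receptor for ephrin-B2, had 357 and 467 (-0.37), close to the -0.34 of its ligand gene Efnb2. Ephb3 had 112 and 115 (-0.04). The probe sets of Ephb1 had 67.4 and 50.04 (0.34) and 9.88 and 1.01 (0.61). Of 19 transducers of Eph and ephrin signals, 13 had a positive difference. Rasa1, a Ras GTPase-activating protein gene, was the 1 gene of these 19 beyond 2-fold, with 132 and 306 (-1.13), against 7.63% of all genes. Ngef, the ephexin gene, had 79.3 and 38.7 (0.80).

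Slit and Robo genes mostly had the higher value in PatDup.dist7. Of 7 differences 5 were negative, and the median was -0.57. Robo1, a main Slit receptor gene, had 132 and 329.7 (-1.22, or 2.34-fold). It stayed past 2-fold with pseudocounts of 1 (-1.31) and 64 (-1.01). Robo2, its neighbour on chromosome 16, had 40.4 and 79.6 (-0.76). Robo4, the endothelial member, had 90.5 and 129.9 (-0.45), and the adjacent Robo3, a divergent neuronal member, had 10.8 and 9.43 (0.08, under the filter). Of the ligands, Slit3 had 384 and 608 (-0.64) and Slit1 had 53.8 and 87.6 (-0.57). Slit2 went the other way, with 946 and 726 (0.38). Of 13 transducers and co-factors of Slit and Robo signals, 10 had a negative difference, with a median of -0.41, and 1 of the 13 passed 2-fold, against 7.63% of all genes. That gene, Arhgap39, had 34.1 and 92.1 (-1.11). Srgap1, which encodes a GTPase-activating protein that binds Robo1, had 189.9 and 309 (-0.66), and Gpc1, a heparan sulphate proteoglycan gene, had 334 and 553 (-0.70). The largest of the 3 positive differences of this list was that of Vasp, with 586 and 450 (0.37).

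By position, the 68 genes lie on 19 chromosomes, 2 of them on chromosome 7 and 3 on X. The labels do not say where the segment of uniparental origin begins, so neither Ntn5 nor Sema4b was assigned to it. They stand at places 937 and 1105 of 2030 protein-coding genes along the chromosome, and they differed in opposite directions (1.59 and -0.89). None of the 3 X-linked genes passed 2-fold, against 7.63% of all genes. There were 5 pairs of guidance genes with no other protein-coding gene between them, and 3 of these had opposite signs. These were Efna1 with Efna3, Efna3 with Efna4, and Robo4 with Robo3. The other pairs, Robo1 with Robo2 and Sema3d with Sema3a, had equal signs.

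The size of several differences depends on how weak signals are treated. Of the 11 genes beyond 2-fold, 10 were above the signal filter on at least 1 array, and 3, Ntn4, Nrp2 and Robo1, were above it on both. With a pseudocount of 64, Ntn4 and Robo1 were the only guidance genes past 2-fold, against 0.868% of all genes. With a pseudocount of 1, 9 further genes passed, which were Efna4, Epha5, Ephb1, Ntn1, Plxna2, Plxna3, Sema4b, Sema5a and Sema6c. The share past 2-fold then rose for all genes as well, from 7.63% to 19.5%, and for the guidance genes from 16.2% to 29.4%. A gain of this kind is therefore not particular to the guidance genes. Of the genes within 2-fold, 18 were at least 1.5-fold apart and 39 were closer.

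**Figure D4:**
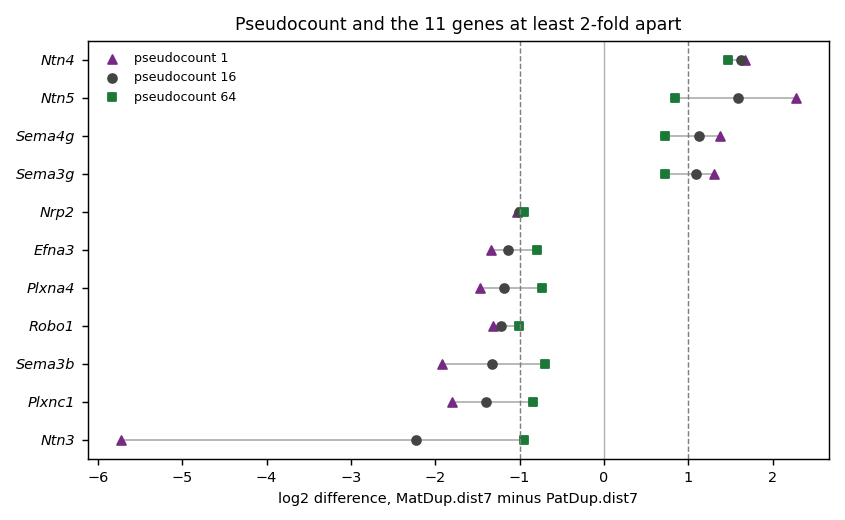
Log2 difference, MatDup.dist7 minus PatDup.dist7, of the 11 guidance genes at least 2-fold apart, with pseudocounts of 1 (triangles), 16 (circles) and 64 (squares); dashed lines mark 2-fold. Ntn3, with an intensity under 1 on 1 array, moves from -5.72 to -0.95, while Ntn4 stays between 1.47 and 1.67.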

How the data were processed

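Total RNA of 2 MEF samples was labelled and hybridised to 1 Affymetrix array each, per the labels' protocols. The authors deposited 1 linear intensity per probe set and array, made with Affymetrix Expression Console per the submitters' processing notes. Which normalisation they used is not stated in the labels. Of 35557 probe sets, 21789 had 1 gene symbol in the platform annotation, 1621 several and 12147 none, and only the first were used. Symbols and chromosomes came from the RefSeq gene table of GRCm38.p6, whose build may differ from that of the array annotation.

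Differences were computed as log2(intensity + 16), averaged over the probe sets of a gene, with Python 3.11.15 and pandas 2.3.3, and the calculation was tested on simulated data. With 1 array per genotype, counts past 2-fold and medians are descriptions beside the same values over all genes. The symbol rule for the members, the lists, the pseudocount and the comparisons were chosen with earlier results of these data known. Named genes were those beyond 2-fold and, per family, those with the highest mean level and the largest difference. All other members are given with their values. Some pathway genes within 2-fold were named outside this rule, and not every marker gene beyond 2-fold was named. Of 111 listed pathway genes outside the families, 106 had a value, and 1 of the lists is not reported here. Precision is limited by the number of arrays.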

Additional observations from a re-analysis of the deposited data

How the results depend on the processing

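The counts of guidance genes past 2-fold, 4 toward MatDup.dist7 and 7 toward PatDup.dist7, became 8 and 12 (10.9% and 8.55% of all genes) when the pseudocount was 1. A pseudocount of 64 gave 1 and 1 (0.466% and 0.401%), signals floored at the 25th percentile of their array gave 8 and 11 (5.27% and 3.76%), and a 3-fold rule gave 2 and 1 (0.818% and 0.552%). They stayed within 1.5 times of 4 and 7 under the other 7 alternatives, which were the signal filter, leaving out probe sets under 1, quantile normalisation, centring on the median of all genes, the probe set with the highest level, leaving out chromosomes X and Y and, chosen after seeing the data, leaving out Unc5cl. Under these 7, the shares of all genes ranged from 2.74% to 4.52% toward MatDup.dist7 and from 2.42% to 3.70% toward PatDup.dist7. Several of these alternatives could hardly change the counts. The filter takes the higher array, and only 3 of the 11 genes beyond 2-fold were above it on both. Each of the 11 has 1 probe set, none lies on X, and Unc5cl differed by 0.04. The median of -0.09 ranged from -0.15 to -0.04 over the 10 alternatives that give one. The signs of 64 of 68 genes were equal under 7 settings that treat scaling and weak signals. Those of Epha2, Plxnb2 and Sema4f turned after quantile normalisation, Sema4f also after centring, and that of Sema4d with its stronger probe set. Of the 11 genes beyond 2-fold, Nrp2 also fell short after quantile normalisation. The sizes of weak signals carry no detection call and no replicate. No paired analysis was possible because each genotype has 1 array.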

Other observations

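Guidance and adhesion genes outside the families described above went both ways. Of 22 genes for other cues, receptors and adhesion molecules, 1 passed 2-fold in each direction. This is 9.09%, near the 7.63% of all genes, and the median was -0.17. L1cam, an X-linked adhesion gene of growing axons, had intensities of 71.6 and 16.9 (log2 difference, MatDup.dist7 minus PatDup.dist7, 1.41). Plxdc1, a plexin-domain gene of tumour endothelium, was listed at 0.0109 and 38.4 (-1.76) and was under the signal filter. Ncam1, the neural cell adhesion molecule gene, had 1023 and 1344 (-0.39), and Rtn4, which encodes Nogo, had 1736 and 1976 (-0.19).

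Over all 106 measured pathway genes outside the families, 7 passed 2-fold toward MatDup.dist7 and 4 toward PatDup.dist7, against 4.47% and 3.16% of all genes. Their median was -0.10, against 0.02 for all genes.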
